A study of Mus musculus with 88 samples.

Results

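The bed nucleus of the stria terminalis (BNST) of 5 stress-susceptible mice of the inbred strain DBA/2Crl (D2) was compared with that of 5 D2 control mice. Every BNST library with either label was taken, which gave 10 of the 28 BNST libraries and of the 88 samples in the series, and the comparison ran over the 17515 genes that reached 1 CPM (counts per 1000000 counts of the library) in 6 or more BNST libraries, out of 48795 genes in the table. All mice were males, aged 8 weeks at dissection, and the tissue was taken 6 to 8 days after chronic social defeat stress (CSDS) had ended. In CSDS a mouse is repeatedly placed with an aggressive CD1 male and is then kept beside it behind a perforated wall. Control mice lived beside another control mouse without contact, and all mice were housed singly afterwards. Defeated mice were classed by their social interaction ratio relative to controls of the same strain, those more than 1 SD under the control mean being called susceptible and the rest resilient, so the susceptible mice are defeated mice that were also selected by behavior. The other BNST groups were 3 D2 resilient mice and 5 control, 5 resilient and 5 susceptible mice of strain C57BL/6Crl (B6). Each library came from 1 mouse, and p values therefore measure the spread between mice.

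The BNST is a small forebrain nucleus of the extended amygdala, made up mostly of GABAergic neurons that also release peptides such as corticotropin-releasing hormone and somatostatin. It connects the amygdala and hippocampus with the hypothalamus and is known for its part in sustained anxiety and in hormonal stress responses. It lies next to the striatum, the anterior thalamus, the hypothalamus and myelinated fiber tracts, so dissected tissue can hold cells from these neighbors.

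The D2 libraries compared held 12728661 to 21167139 counts, and their totals did not separate the groups (exact permutation test, two-sided, p = 0.627, Benjamini-Hochberg adjusted p = 0.627 over 3 library measures). Susceptible mice 1, 2, 4 and 5 were sequenced in 1 sequencing set each, and susceptible mouse 3 and control mice 1 to 5 in 2. The number of sequencing sets thus nearly followed the groups, and its part in the differences below was not tested. Genes with a read numbered 25505 to 27718 in susceptible mice and 24079 to 25541 in controls. GABAergic genes were abundant in all of these libraries. Gad1, which encodes an enzyme of GABA synthesis, had 463 to 663 CPM in controls and 385 to 492 CPM in susceptible mice. The share of counts on the 2 mitochondrial ribosomal RNAs was 15.0, 26.7, 10.3, 12.2 and 8.90% in control mice 1 to 5 and 6.70, 5.40, 7.94, 4.795 and 5.24% in susceptible mice 1 to 5. All susceptible mice were below all controls, with means of 6.01 ± 1.29% and 14.6 ± 7.14% (SD, n = 5 each). The difference gave an exact permutation p of 0.00794, the smallest that 5 against 5 allows (adjusted p = 0.0238). Control mouse 2 stood apart from the rest with the highest share. The TMM scaling factors, which set the level of all other genes, were higher in susceptible mice (mean 1.21 against 0.978, exact permutation p = 0.0238, adjusted p = 0.0357). CPM values below are on this scale. Without the TMM factors the median of all log2 fold changes moved from −0.04 to 0.27, and every statement on a gene list below is therefore read against the median of all genes.

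No gene passed the threshold in edgeR's quasi-likelihood test after Benjamini-Hochberg adjustment, 0% of the genes tested, and the lowest adjusted p was 0.292. At an unadjusted p under 0.05 there were 1056 genes, 6.03% of those tested, of which 314 (1.79%) were higher and 742 (4.24%) were lower in susceptible mice. Without TMM factors these counts were 2715 (15.5%) and 167 (0.953%). DESeq2 called 12 genes, 0.0685% of those tested. The 5 susceptible mice were all below the 5 controls for 118 genes (0.674%) and all above for 56 genes (0.32%). In total 9847 genes (56.2%) had a log2 fold change below 0.

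Sstr2, a receptor for the inhibitory peptide somatostatin, was the 1 gene of the 12 that rose. It had 4.43, 2.68, 2.17, 1.93 and 1.40 CPM in control mice 1 to 5 and 14.2, 6.59, 8.02, 6.385 and 3.51 CPM in susceptible mice 1 to 5. Only susceptible mouse 5 was below the highest control, and the groups overlapped through this mouse and control mouse 1. The resilient mice had 3.04, 5.89 and 5.94 CPM. The log2 fold change over controls was 1.61 ± 0.38 (SE), with an adjusted p of 0.0351 in DESeq2 and of 0.486 in edgeR's quasi-likelihood test. Leaving out single mice kept it between 1.28 and 1.92. The difference was 1.04 among mice of library preparation set 1 and 2.02 among those of set 2. Sst, the precursor of somatostatin, had 44.7 to 107 CPM in controls and 34.9 to 92.8 CPM in susceptible mice, a log2 difference of −0.48 ± 0.30 (SE) that did not pass the test (edgeR adjusted p = 0.914). Sstr2 (ENSMUSG00000047904) lies at chr11:113619342-113626028 on the plus strand of GRCm38, within the span of Slc39a11 on the opposite strand. Whether the counting used strand is not given in the sources used here, so reads of such a pair may not be told apart.

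The promoter of Sstr2 is shown because this receptor had the lowest p of the peptide receptors, and it holds a cyclic AMP response element. The sequence is RefSeq's on GRCm38.p6, chr11:113619077-113619346, plus strand, from 250 bases before the start to 20 after it, with the element in capitals.
Sstr2: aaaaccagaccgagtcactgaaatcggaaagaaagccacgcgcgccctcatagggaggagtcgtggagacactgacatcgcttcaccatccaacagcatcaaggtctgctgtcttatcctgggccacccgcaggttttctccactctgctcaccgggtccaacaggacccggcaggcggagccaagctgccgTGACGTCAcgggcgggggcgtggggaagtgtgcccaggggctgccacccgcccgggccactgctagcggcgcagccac
The letters TGACGTCA, read on both strands of 300-base windows, were found in 588 of 32851 promoters (1.79%). A match describes the letters and is not evidence of a bound site.

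Of 24 receptors for BNST peptides and steroids tested, Sstr2 included, 20 were past no threshold. Higher at an unadjusted p under 0.05 were Sstr2, Crhr2 and Esr1, and Vipr2 was lower, which is 12.5% higher and 4.2% lower beside 1.79% and 4.24% of all genes. Crhr2, a receptor for urocortins, had 2.39, 0.669, 1.11, 1.71 and 0.485 CPM in controls and 2.39, 2.57, 4.08, 3.17 and 1.23 CPM in susceptible mice. These ranges overlapped, the log2 difference being 1.07 ± 0.42 (SE; edgeR adjusted p = 0.677). Esr1, the estrogen receptor alpha, ranged from 0.862 to 7.44 CPM in controls and from 1.90 to 17.1 CPM in susceptible mice, with susceptible mouse 2 the highest. Vipr2, a receptor for vasoactive intestinal peptide, was at 23.4 CPM in control mouse 5 and at 0.774 to 6.27 CPM in the other controls, beside 1.20 to 4.29 CPM in susceptible mice. Crhr1, the main receptor for corticotropin-releasing hormone, had 3.6 to 12.6 CPM in controls and 4.72 to 11.6 CPM in susceptible mice. Of 13 peptide precursors none was past an unadjusted p of 0.05, and their median log2 difference was −0.17. Crh itself ranged from 0.162 to 8.78 CPM in controls and from 0.684 to 6.36 CPM in susceptible mice, and the sign of its small difference (−0.17) turned to 0.26 without TMM factors.

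**Figure D1:**
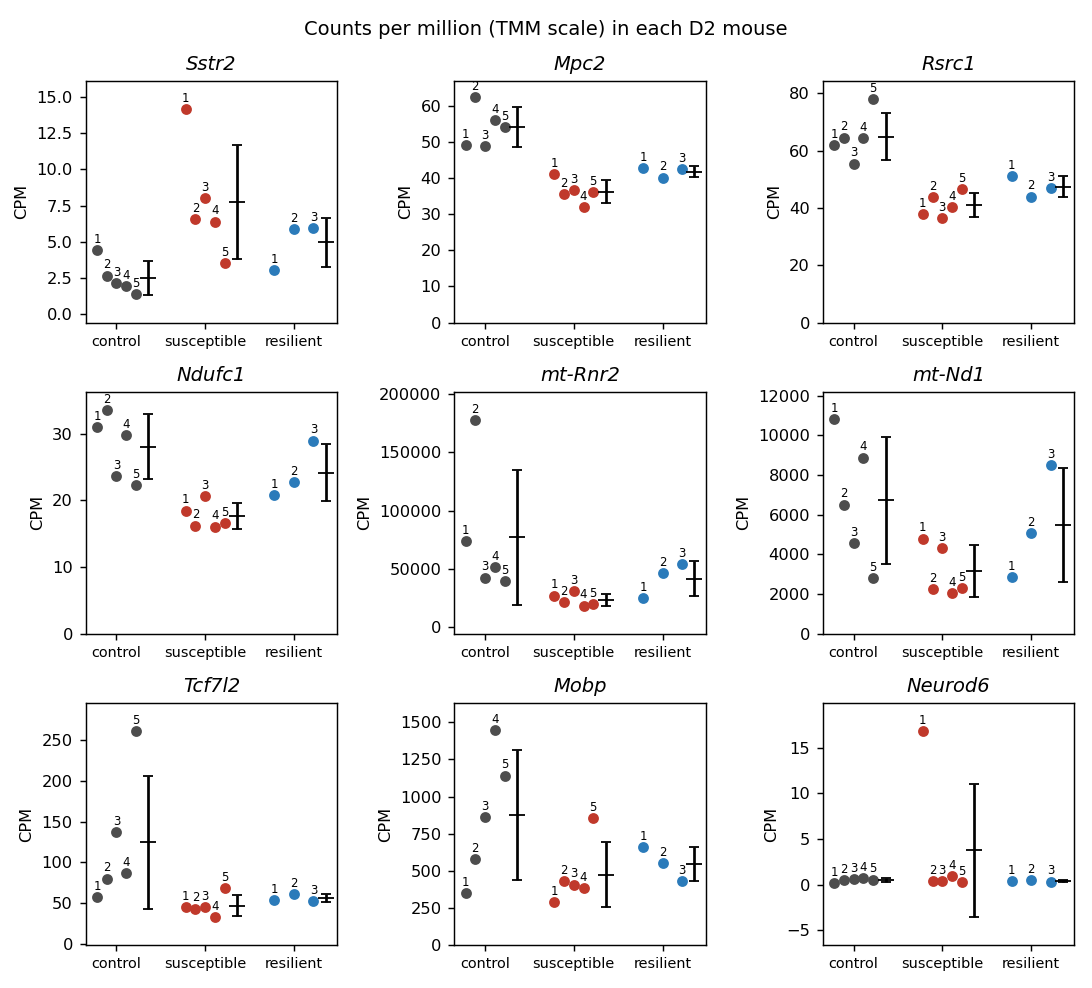
CPM on the TMM scale (y axis, linear, a separate scale per gene) of 9 genes in each D2 mouse, by group (x axis); numbered points are single mice and bars are the group mean ± SD. The susceptible mice lie below every control for Mpc2, Rsrc1, Ndufc1 and mt-Rnr2, control mouse 5 is highest for Tcf7l2 at 261 CPM, and Neurod6 is high in susceptible mouse 1 alone, at 16.8 CPM.

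The other 11 genes called by DESeq2 fell, and 4 of them encode proteins of known function. Mpc2, a subunit of the carrier that brings pyruvate into mitochondria, had 49.2, 62.4, 48.9, 56.03 and 54.3 CPM in control mice 1 to 5 and 41.3, 35.6, 36.6, 32.0 and 36.2 CPM in susceptible mice 1 to 5. The highest susceptible mouse was below the lowest control. The log2 fold change was −0.58 ± 0.12 (SE; DESeq2 adjusted p = 0.00285, edgeR adjusted p = 0.292), and it was −0.60 and −0.54 within the library preparation sets. The 3 resilient mice lay between the group means, at 40.2 to 42.8 CPM. Mpc2 lies at chr1:165460637-165481214 on the plus strand.

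Rsrc1, a factor in pre-mRNA splicing, had 61.9, 64.6, 55.5, 64.5 and 78.1 CPM in controls and 37.7, 43.8, 36.4, 40.3 and 46.5 CPM in susceptible mice. The groups did not overlap, and the log2 fold change was −0.66 ± 0.13 (SE; DESeq2 adjusted p = 0.00285, edgeR adjusted p = 0.292). Rsrc1 lies at chr3:66981390-67358396 on the plus strand and overlaps Shox2, a gene of thalamic neurons, on the opposite strand. Shox2 had 0.0704, 0, 27.6, 4.54 and 81.1 CPM in controls and 0, 1.12, 0.207, 0.0919 and 10.6 CPM in susceptible mice. Rsrc1 was at 61.9 and 64.6 CPM in control mice 1 and 2, where Shox2 was at 0.0704 and 0 CPM, and the part of shared reads in the Rsrc1 difference was not tested. Pdcl, a cofactor in the folding of G protein beta subunits, had 22.9, 33.4, 22.1, 29.0 and 27.3 CPM in controls and 19.9, 15.6, 17.8, 19.0 and 21.5 CPM in susceptible mice. All susceptible mice were lower, with a log2 fold change of −0.52 ± 0.12 (SE; DESeq2 adjusted p = 0.0199, edgeR adjusted p = 0.411). Ndufc1, a subunit of respiratory complex I, had 31.0, 33.5, 23.7, 29.8 and 22.3 CPM in controls and 18.5, 16.2, 20.7, 16.1 and 16.6 CPM in susceptible mice. These groups were again separate, with a log2 fold change of −0.67 ± 0.15 (SE; DESeq2 adjusted p = 0.0194, edgeR adjusted p = 0.411).

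The remaining 7 genes that fell in DESeq2 were ribosomal, small or predicted RNAs. The mitochondrial 16S and 12S ribosomal RNAs, mt-Rnr2 and mt-Rnr1, had log2 fold changes of −1.72 ± 0.39 and −1.61 ± 0.40 (SE; DESeq2 adjusted p = 0.0113 and 0.0268). The 5S ribosomal RNA copy n-R5s162 had 3.73, 3.68, 1.52, 1.12 and 2.32 CPM in controls and 0 to 0.346 CPM in susceptible mice (DESeq2 adjusted p = 0.0381). It is 1 of many near-identical 5S copies, among which reads can be split. The small nucleolar RNA Gm24264, inside Snhg14, had 0.176 to 2.93 CPM in controls and 0 to 0.141 CPM in susceptible mice (DESeq2 adjusted p = 0.0301), values that rest on few reads. The predicted genes Gm6977, Gm20594 and Gm43333 had log2 fold changes of −1.76 ± 0.39, −1.88 ± 0.45 and −1.82 ± 0.42 (SE; DESeq2 adjusted p = 0.0190, 0.0268 and 0.0190). Gm43333 overlaps Gm17660 on the same strand.

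**Figure D2:**
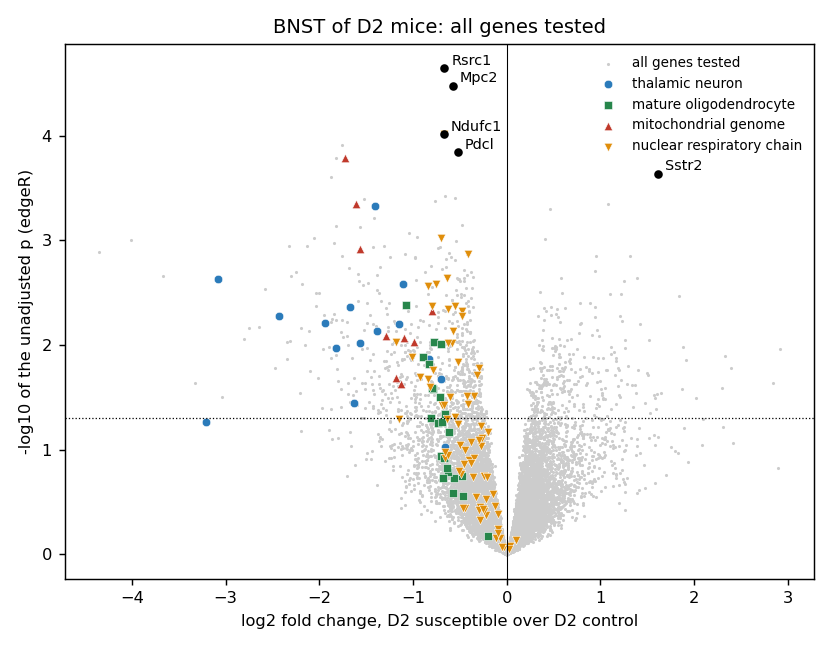
Log2 fold change of D2 susceptible over D2 control mice (x axis) against −log10 of the unadjusted edgeR p (y axis) for the genes tested; colored symbols are the members of 4 lists, black points are 5 genes named in the text, and the dotted line is at an unadjusted p of 0.05. The respiratory chain, mitochondrial, thalamic and oligodendrocyte members past the line are all on the side of lower values.

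RNA of the mitochondrial genome was lower in susceptible mice. The mitochondrial genome encodes core subunits of the respiratory chain and its own ribosomal RNAs. Of its 15 genes on the list, 9 passed the filter, and all 9 were lower at an unadjusted p under 0.05, beside 4.24% of all genes. Their median log2 fold change was −1.19. Without TMM factors all 9 were lower too, beside 0.953% of all genes, with a median of −0.86. The mean log2 CPM over the list was 13.99, 13.68, 12.74, 13.59 and 12.12 in control mice 1 to 5 and 12.66, 11.68, 12.66, 11.55 and 11.76 in susceptible mice 1 to 5. Control mouse 5 was the only control within the range of the susceptible mice. mt-Nd1, a complex I subunit, had 6723 ± 3218 CPM in controls and 3148 ± 1300.5 CPM in susceptible mice (SD, n = 5 each), with overlapping ranges and a log2 difference of −1.09 ± 0.39 (SE; edgeR adjusted p = 0.635). Of the 9 genes, 7 to 9 remained lower at this threshold when any 1 mouse was left out, and the mean level differed by −1.05 and −1.20 within the library preparation sets. Within the groups of mice that share an ID prefix (ED3, ED4 and ED6) it differed by −1.33, −1.72 and −1.05.

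Nuclear genes of the respiratory chain, whose products join those of the mitochondrial genome in the same complexes, were mostly lower as well. Of 77 tested, 31 were lower at an unadjusted p under 0.05, none were higher, and 74 had a log2 fold change below 0. The median was −0.42, beside −0.04 for all genes, and 40.3% were lower beside 4.24% of all genes. The 5 susceptible mice were all below the 5 controls for 9 of the 77, beside 0.674% of all genes. By complex, 10 of 36 complex I genes, 1 of 4 complex II genes, 3 of 8 complex III genes, 8 of 12 complex IV genes and 9 of 17 ATP synthase genes were lower, with medians of −0.37, −0.17, −0.35, −0.71 and −0.43. The list level was 5.52, 4.65, 5.31, 5.56 and 5.27 in controls and 5.09, 4.84, 5.06, 4.79 and 4.78 in susceptible mice as mean log2 CPM. Control mouse 2 was below every susceptible mouse and the other 4 controls were above every one. Without control mouse 2, 56 genes were lower, where 1340 of all 17515 genes tested were. Without TMM factors 7 were lower (9.09%, beside 0.953% of all genes), with a median of −0.11 where that of all genes was 0.27. Within the prefixes ED3, ED4 and ED6 the list level differed by −0.43, 0.25 and −0.60, control mouse 2 being the control of ED4. Ndufv2, another complex I subunit, had 71.01, 90.6, 59.2, 71.7 and 58.3 CPM in controls and 48.1 to 56.7 CPM in susceptible mice, with no overlap (log2 difference −0.42 ± 0.12 SE, edgeR adjusted p = 0.537). Uqcrb, a complex III subunit, had 51.0, 71.2, 36.9, 42.8 and 29.3 CPM in controls and 21.8 to 34.8 CPM in susceptible mice, so that only control mouse 5 lay within the susceptible range.

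Promoters of the respiratory chain are shown for Cox6a1, a subunit of complex IV, and Atp5k, a subunit of ATP synthase. Both hold the core motif of nuclear respiratory factor 1 and an ETS motif, elements known from genes of this pathway. Both genes were chosen for display after their values were seen. Other genes of the list also hold both motifs, with smaller log2 differences of −0.47 to −0.33. Across all list genes with the nuclear respiratory factor 1 motif, log2 differences ran from −0.92 to 0.10. Whether either motif goes with lower values was not tested. The windows run from 250 bases before the RefSeq start to 20 after it on GRCm38.p6, at chr5:115348939-115349208 and chr5:108434380-108434649, both on the minus strand, with the motifs in capitals.
Cox6a1: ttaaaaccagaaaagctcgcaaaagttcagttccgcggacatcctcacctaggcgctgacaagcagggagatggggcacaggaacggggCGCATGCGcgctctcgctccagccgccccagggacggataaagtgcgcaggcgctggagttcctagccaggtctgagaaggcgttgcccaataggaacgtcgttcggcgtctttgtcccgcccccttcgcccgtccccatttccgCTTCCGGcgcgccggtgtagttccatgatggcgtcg
Atp5k: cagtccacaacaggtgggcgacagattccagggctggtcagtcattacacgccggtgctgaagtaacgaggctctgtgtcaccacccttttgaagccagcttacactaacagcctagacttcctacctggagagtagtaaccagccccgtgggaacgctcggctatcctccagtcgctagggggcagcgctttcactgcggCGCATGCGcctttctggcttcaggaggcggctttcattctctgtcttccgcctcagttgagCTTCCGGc
The letters CGCATGCG stood in 9 of 68 promoters of the list (13.2%) and in 1.87% of all promoters, and CCGGAAG, which reads CTTCCGG on the other strand, in 16 of 68 (23.5%) and in 8.86% of all. These shares cover 63 of 75 list genes with a RefSeq promoter, 300-base windows and both strands. Cox6a1 had 297, 89.8, 205, 405 and 137 CPM in controls and 174, 114, 138, 88.2 and 83.8 CPM in susceptible mice. The groups overlapped (log2 difference −0.92 ± 0.37 SE, edgeR adjusted p = 0.699). Atp5k had 91.6, 34.7, 55.6, 83.6 and 40.5 CPM in controls and 51.3, 28.5, 46.9, 25.1 and 21.8 CPM in susceptible mice, also with overlap (log2 difference −0.82 ± 0.35 SE, edgeR adjusted p = 0.711).

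Of the cytosolic ribosome, the machinery that translates nuclear messages, a part of the genes was lower in susceptible mice. Of 80 ribosomal protein genes tested, 18 were lower (22.5%, beside 4.24% of all genes), none were higher and 76 had a log2 fold change below 0, with a median of −0.37. The list level was 5.46, 4.52, 5.20, 5.38 and 4.95 in controls and 5.05, 4.76, 5.00, 4.66 and 4.59 in susceptible mice as mean log2 CPM. Control mouse 2 was below every susceptible mouse, control mouse 5 was inside their range and the other 3 controls were above it. Of the large subunit 11 of 48 were lower and of the small subunit 7 of 32. Rpl39 had 10.8, 26.6, 9.50, 13.1 and 8.95 CPM in controls and 5.52 to 8.31 CPM in susceptible mice, and Rpl30 had 55.1, 65.8, 44.7, 40.0 and 42.2 CPM in controls and 30.9 to 39.8 CPM in susceptible mice. For both genes the groups did not overlap, with log2 differences of −0.96 ± 0.26 and −0.53 ± 0.18 (SE; edgeR adjusted p = 0.537 and 0.601). Rpl23 was lower by a similar amount, with 43.5 to 71.6 CPM in controls and 30.2 to 45.0 CPM in susceptible mice. Without control mouse 2, 35 ribosomal protein genes were lower, where 1340 of all 17515 genes tested were. Without TMM factors 4 were lower (5%, beside 0.953% of all genes). Ribosomal protein genes have many processed pseudogenes that can share their reads. Of 487 processed pseudogenes tested, 121 (24.8%) were lower, with a median of −0.42. Among protein-coding genes in 5 classes of exon length, 6.28% were lower in the shortest class and 2.93 to 3.35% in the others. The part of transcript length in these results was not tested.

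**Figure D3:**
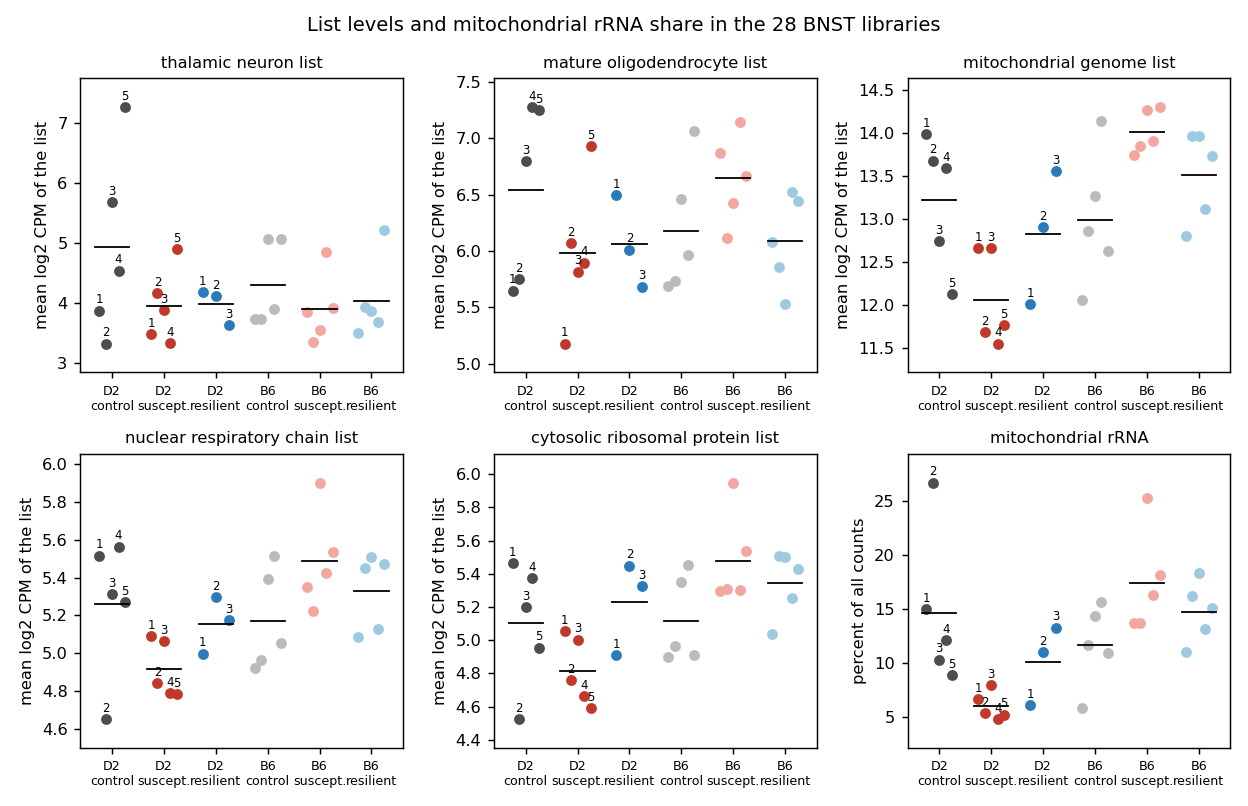
Mean log2 CPM of 5 gene lists and the share of counts on mitochondrial ribosomal RNA (y axes) in each of the 28 BNST libraries by strain and group (x axis); points are mice, D2 points carry the mouse number, and lines are group means. Control mouse 2 is below every susceptible D2 mouse for the nuclear respiratory chain and ribosomal protein lists, and control mouse 5 is above all other libraries for the thalamic list at 7.28.

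Genes of thalamic neurons were lower in susceptible than in control mice, and the controls differed widely among themselves. All 16 thalamic genes passed the filter, and 13 (81.3%) were lower at an unadjusted p under 0.05, beside 4.24% of all genes. All 16 had a log2 fold change below 0, with a median of −1.49. Without TMM factors 10 were lower (62.5%, beside 0.953% of all genes), with a median of −1.28. The mean log2 CPM of the list was 3.87, 3.32, 5.69, 4.54 and 7.28 in control mice 1 to 5 and 3.48, 4.166, 3.88, 3.33 and 4.90 in susceptible mice 1 to 5. Control mouse 5 was highest, control mice 1 and 4 were within the susceptible range and control mouse 2 was at its lower end. Summed over the list, controls ranged from 562 to 4156 CPM, susceptible mice from 513 to 993 CPM and resilient mice from 504 to 661 CPM. Without control mouse 5, 1 of 16 genes was lower and the median was −0.56, and with the prefix of the mouse ID in the fit 1 was lower and the median was −0.59. The prefix was not balanced, since ED6 held 3 controls (mice 3, 4 and 5) and 1 susceptible mouse (mouse 5), ED4 held 1 control and 3 susceptible mice, and ED3 held 1 of each. Susceptible mouse 5 had the highest thalamic level of its group. Within ED3, ED4 and ED6 the thalamic level differed by −0.39, 0.47 and −0.93 between susceptible and control mice, with too few mice for a test. In bulk tissue, fewer cells of a type and less RNA per cell cannot be told apart.

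Tcf7l2, a transcription factor that marks thalamic neurons, had 57.6, 80.1, 137, 87.1 and 261 CPM in controls and 44.6, 43.2, 45.3, 32.9 and 68.2 CPM in susceptible mice. Only susceptible mouse 5 was above the lowest control (log2 difference −1.41 ± 0.35 SE, edgeR adjusted p = 0.518, DESeq2 adjusted p = 0.0598). Without control mouse 5 the difference was the smallest of those with 1 mouse left out, at −0.95. Tnnt1, which encodes a troponin, had 1.97, 0, 3.64, 4.39 and 29.1 CPM in controls and 0.505 to 1.27 CPM in susceptible mice. Its highest level was again in control mouse 5, and control mouse 2 had no read. Lef1, a partner of Wnt signaling, and Rora, a nuclear receptor, had 124 and 647 CPM in control mouse 5 beside 11.3 to 59.4 CPM and 102 to 214 CPM in the other controls. Rgs16, a regulator of G protein signaling, and Synpo2, an actin-binding protein, were also highest there, with 56.7 and 215 CPM. So was Rasd1, a small GTPase that is no member of the list, with 34.7 CPM in control mouse 5, 1.69 to 8.09 CPM in the other controls and 1.41 to 4.88 CPM in susceptible mice.

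Genes of mature oligodendrocytes (OLGs), the cells that make myelin, were lower on average. All 24 had a log2 fold change below 0, with a median of −0.69 beside −0.04 for all genes. At an unadjusted p under 0.05, 10 (41.7%) were lower, beside 4.24% of all genes. Without TMM factors 1 was lower, with a median of −0.41 where that of all genes was 0.27. The list shares myelin genes with those that the study examined in these samples and so is not independent evidence of their direction. The list level was 5.65, 5.75, 6.80, 7.28 and 7.25 in controls and 5.18, 6.07, 5.82, 5.90 and 6.93 in susceptible mice as mean log2 CPM. Control mice 1, 2 and 3 lay within the susceptible range. The count of lower genes was 2 without control mouse 4, 5 without control mouse 5, 21 without susceptible mouse 5 and 3 with that prefix in the fit, and the level differed by 0.16 within library preparation set 1 and by −1.33 within set 2. Within ED3, ED4 and ED6 the OLG level differed by −0.47, 0.18 and −0.18, and susceptible mouse 5, of ED6, had the highest level of its group. The 2 controls with the highest thalamic levels, mice 5 and 3, were also among the 3 with the highest OLG levels; the part of neighboring tissue in the OLG difference was not tested.

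Mobp, a protein of the myelin sheath, had 346, 579, 864, 1449 and 1142 CPM in controls and 287, 431, 406, 383 and 852 CPM in susceptible mice. The difference was −0.89 ± 0.34 on the log2 scale (SE; edgeR adjusted p = 0.658), with control mice 1 and 2 inside the susceptible range. Cldn11, a tight junction protein of myelin, had 135 to 402 CPM in controls and 103 to 240 CPM in susceptible mice, also with overlap. Of 12 genes of oligodendrocyte precursor cells (OPCs) none was past an unadjusted p of 0.05, and their median was −0.15. Pdgfra, which marks OPCs, had 47.1 to 64.3 CPM in controls and 42.2 to 57.9 CPM in susceptible mice.

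Other glial lists differed less, and their shares below stand beside 4.24% lower among all genes. Without TMM factors no astrocyte or microglial gene was lower. Their medians were then 0.03 and 0.13 where that of all genes was 0.27. The astrocyte level differed by 0.009 within library preparation set 1 and by −0.53 within set 2. Of 12 astrocyte genes 4 were lower (33.3%, median −0.30), among them S100b, a calcium-binding protein, at 45.6 to 138 CPM in controls and 43.8 to 72.4 CPM in susceptible mice, and Aldoc, a glycolytic enzyme, at 127 to 360 CPM and 158 to 210 CPM. For Aldoc the 4 controls other than mouse 2 had at least 274 CPM and were all above the susceptible mice. Slc1a2, the main glutamate transporter of astrocytes, had 2023 to 2981 CPM in controls and 1693 to 2390 CPM in susceptible mice. Of 13 microglial genes 3 were lower (23.1%, median −0.19), namely P2ry12, Itgam and Ctss. Of 12 endothelial genes none was past an unadjusted p of 0.05 (median −0.10), and of 7 meningeal genes 1 was lower, the growth factor Igf2, with 25.6 to 142 CPM in controls and 36.9 to 57.9 CPM in susceptible mice.

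Among neuronal lists, 3 of 10 general neuronal genes were lower (30.0%) and the median was −0.31; without TMM factors none was lower and the median was 0.01 where that of all genes was 0.27. Snap25, a protein of synaptic vesicle fusion, had 1111 to 1957 CPM in controls and 718 to 1539 CPM in susceptible mice, and Nefl, a neurofilament subunit, 139 to 301 CPM and 118 to 182 CPM. Of 11 GABAergic genes 2 were lower (18.2%, median −0.16), both encoding enzymes of GABA synthesis. Of all genes 4.24% were lower. Without TMM factors no GABAergic gene was lower and 1 was higher (9.09%, beside 15.5% of all genes), with a median of 0.15. Gad1 had a log2 difference of −0.40 ± 0.14 (SE; edgeR adjusted p = 0.629), with only susceptible mouse 5 above the lowest control. Gad2 had 1186 CPM in control mouse 2, 483 to 555 CPM in the other controls and 430 to 541 CPM in susceptible mice. Striatal genes showed no member past an unadjusted p of 0.05 (12 genes, median 0.25). The dopamine receptor gene Drd1 had 37.3 to 160 CPM in controls and 98.5 to 161 CPM in susceptible mice. Drd2 was at 24.8 and 35.0 CPM in control mice 2 and 5 and at 127 to 197 CPM in the other controls, beside 91.5 to 161 CPM in susceptible mice.

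Cortical excitatory genes were high in single mice rather than in a group. Their median was 1.17 with 2 of 9 higher, but relative to all genes it was −0.39 without susceptible mouse 1. Neurod6, a transcription factor of cortical neurons, was at 16.8 CPM in susceptible mouse 1 and at 0.141 to 0.919 CPM in the other 9 mice. Slc17a7, a vesicular glutamate transporter, was at 134 CPM in susceptible mouse 1 and at 120 CPM in control mouse 5, at 0.0836 CPM in control mouse 2, and at 6.18 to 15.5 CPM in the other 7 mice. Of 4 hypothalamic genes tested, Avp was highest in control mouse 1 at 30.0 CPM and Oxt in susceptible mouse 2 at 25.1 CPM.

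**Figure D4:**
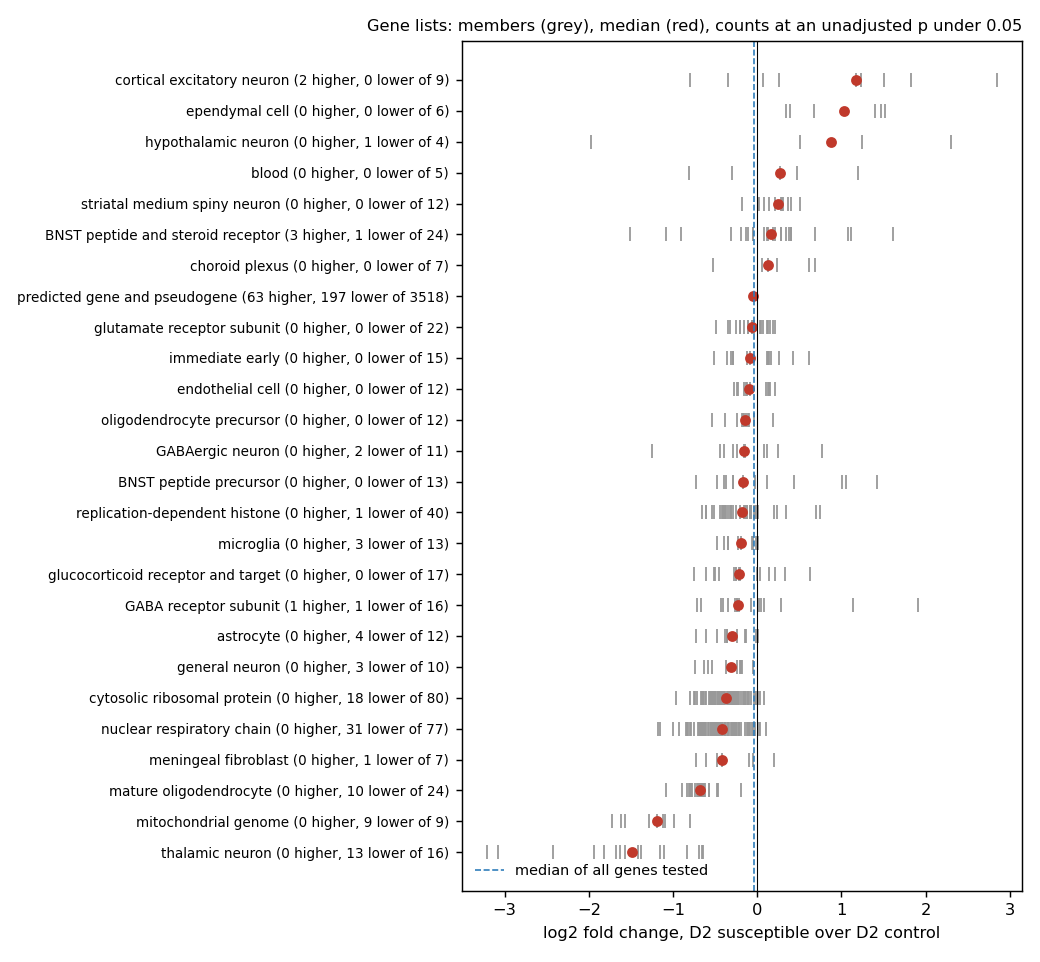
Log2 fold change of D2 susceptible over D2 control mice (x axis) for the members of 26 gene lists (rows, with counts at an unadjusted p under 0.05); grey ticks are members, red points are list medians over all tested members, and the dashed line is the median of all genes. Members on chromosome 18 and those of the largest list are not drawn as ticks. The thalamic, mitochondrial genome and mature oligodendrocyte medians are the lowest, at −1.49, −1.19 and −0.69.

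The highest ranked genes beside Sstr2 were expressed at low levels, and none passed an adjusted threshold. Trpc6, a calcium-permeable channel, had 5.77, 6.02, 9.15, 4.91 and 2.43 CPM in controls and 12.2, 8.93, 9.47, 15.1 and 9.25 CPM in susceptible mice. Only control mouse 3 reached into the susceptible range (log2 difference 0.96 ± 0.27 SE, edgeR adjusted p = 0.537). Tert, the catalytic subunit of telomerase, had 0.372 to 1.13 CPM in controls and 0.957 to 3.94 CPM in susceptible mice. Cdcp1, a transmembrane protein, had 0.162 to 0.879 CPM and 0.689 to 2.57 CPM, and Npbwr1, a receptor for the neuropeptides B and W, 0.162 to 1.004 CPM and 0.547 to 1.97 CPM. Olfr1393, Togaram2, Mroh8, Ccdc60 and Cfap43 had log2 differences between 1.16 and 1.57 and overlapping groups. Rtn4rl2, a receptor of the Nogo family, and Fezf2, a cortical transcription factor, were high in susceptible mouse 1, with 8.24 and 9.93 CPM there and at most 1.11 and 2.83 CPM in the other susceptible mice. The 5S copies n-R5s56 and n-R5s71 had log2 differences of −2.75 and −2.65 and passed no adjusted threshold. All susceptible mice were below their control mean, which the rule for ranked genes required. Lars2, a mitochondrial leucyl-tRNA synthetase, was at 471 CPM in control mouse 2, at 40.6 to 89.9 CPM in the other controls and at 32.5 to 56.3 CPM in susceptible mice.

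Susceptible D2 mice were next compared with the 3 resilient D2 mice, which had also been defeated. This comparison shares the susceptible mice with the one above. No gene passed the threshold in edgeR's quasi-likelihood test or in DESeq2 (0% each), and 230 genes (1.31%) had an unadjusted edgeR p under 0.05, of which 96 (0.548%) were higher and 134 (0.765%) were lower in susceptible mice. Of 80 ribosomal protein genes 21 were lower, with a median of −0.47, and of 77 respiratory chain genes 1 was, while no thalamic gene was lower. Of 9 genes of the mitochondrial genome 1 was lower, with a median of −0.80. None of 24 OLG genes was lower, with a median of −0.01. The mean OLG level was 6.06 in resilient, 5.98 in susceptible and 6.54 in control mice. Among 17 genes of the glucocorticoid receptor and its targets, which respond to stress hormones, 5 were lower and none were higher. Plin4, a lipid droplet protein, had 20.8, 27.0 and 1.39 CPM in resilient mice 1 to 3 and 1.45 to 7.93 CPM in susceptible mice. Sgk1, a kinase induced by glucocorticoids, had 119, 131 and 70.5 CPM in resilient mice and 58.5 to 75.5 CPM in susceptible mice. For both genes resilient mice 1 and 2 were above every susceptible mouse and resilient mouse 3 was not, and Hif3a had the same order with 38.8, 43.9 and 5.74 CPM. Against controls none of the 17 was past an unadjusted p of 0.05. Kdr, a receptor for vascular endothelial growth factor, had 9.92, 10.1 and 14.1 CPM in resilient mice and 14.6 to 20.7 CPM in susceptible mice (log2 difference 0.70 ± 0.17 SE). Kdr was picked after its values were seen and passed no adjusted threshold. The resilient mice came from mouse ID prefixes that held no other D2 mice, so prefix and group cannot be told apart here. Resilient mice 1 and 2 had the prefix ED1 and resilient mouse 3 had ED2. The mean log2 CPM of the glucocorticoid list was 5.13, 5.37 and 4.18 in resilient mice 1 to 3. In susceptible mice it was 4.28 to 4.68.

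The difference between susceptible and control mice was then set against that in B6 mice, as an interaction of strain and group that uses the D2 values above. No gene passed in edgeR's quasi-likelihood test after adjustment (0%), 2004 genes (11.4%) had an unadjusted p under 0.05, with 717 higher (4.09%) and 1287 lower (7.35%) in D2, and DESeq2 called 223 (1.27%). Of the mitochondrial genome 9 of 9 tested genes had a lower difference in D2, as had 44 of 77 respiratory chain genes, 44 of 80 ribosomal protein genes, 14 of 24 OLG genes and 3 of 16 thalamic genes. The medians of the B6 differences were 0.89, 0.36, 0.44, 0.39 and −0.36 for these lists. Mitochondrial ribosomal RNA took 5.81 to 15.7% of the counts in B6 controls and 13.7 to 25.3% in B6 susceptible mice. Sstr2 had 4.35 to 8.03 CPM in B6 controls and 2.22 to 3.91 CPM in B6 susceptible mice, and the difference between strains was 2.49 on the log2 scale (edgeR adjusted p = 0.0708). Mpc2 had 36.5 to 48.2 CPM in B6 controls and 46.4 to 62.4 CPM in B6 susceptible mice, and the difference between strains was −0.90 (edgeR adjusted p = 0.0708).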

How the data were processed

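RNA of the BNST was prepared with the NuGEN Ovation Universal kit with ribosomal RNA depletion by InDA-C primers, and sequenced single-end. The authors trimmed the reads, removed duplicates with PRINSEQ, aligned the rest to GRCm38 with STAR and deposited raw read counts on gene exons made with HTSeq. The strand setting is not given in the sources used here. The tables of the other brain regions were not used here.

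The counts of the 28 BNST libraries (11825757 to 25793910 per library, 99.7 to 99.8% of them in the genes tested) were scaled with TMM and fitted together, with a mean per group, in edgeR 4.0.16 (robust quasi-likelihood, Benjamini-Hochberg adjustment, threshold 0.05, R 4.3.3). Genes reaching 1 CPM in 6 or more libraries entered the test, and 8699 genes of the table had no read. The precision of a value comes from the spread between mice, and values under 1 CPM rest on few reads. Alternatives were DESeq2 1.42.0, limma 3.58.1 with voom, other scalings and filters, batch covariates and leaving out mice. The voom fits were run with TMM, or without TMM and with ComBat (sva 3.50.0), so they do not differ in ComBat alone. In simulated data for this comparison with 200 of 17515 genes changed by 1 on the log2 scale, edgeR recovered 54.5% and called 2 unchanged genes, and DESeq2 recovered 64.5% and called 9. The changed genes were drawn from those above a minimum mean count. Each gene varied independently, without differences in dissection, library set or ID prefix shared across genes. These rates may therefore not hold for the real data or for genes with few reads. Tables were made in Python 3.11.15 with SciPy 1.17.1. No 2 count columns were identical (0 pairs).

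Symbols and positions are from GENCODE M21, which matched 99.7% of the genes tested (61 had no symbol), and promoters from RefSeq. Genes of chromosome 18 (460 tested) were counted but they and a few other list members are not reported here by name. The genes named are those past an adjusted p of 0.05 in edgeR or DESeq2, the 12 highest and 12 lowest ranked by p and fold change whose susceptible mice all lie on 1 side of the control mean, and the first 2 and up to 3 strongest members of each of 26 lists. Some of them, with no clear difference, are given only within their lists. Esr1, Slc1a2, Shox2, Slc39a11, Snhg14, Gm17660, Cox6a1, Atp5k, Plin4, Hif3a, Sgk1 and Kdr were named after their values were seen. The members and lists were chosen with earlier results of these data known. Library preparation sets and mouse ID prefixes are those of the study's sample list. Set 1 held 3 controls and 2 susceptible mice and set 2 held 2 and 3.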

Additional observations from a re-analysis of the deposited data

Results flagged for a closer look

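Single D2 mice lay far from the other 4 of their group in 13 of 210 sets of values, where chance alone gives about 1 in 20. Values are log2 CPM for genes and mean log2 CPM for lists. Control mouse 2 was highest for Gad2 at 10.2 (others 8.92 to 9.12), and lowest for Aldoc at 6.99 (others 8.10 to 8.49), for the replication-dependent histone list at −0.76 (others 1.47 to 2.14) and for the cortical excitatory list at 1.74 (others 2.55 to 2.84). Control mouse 1 was lowest for Neurod6 at −2.51 (others −0.88 to −0.36) and highest for the hypothalamic list at 2.99 (others −0.90 to 0.09). Susceptible mouse 1 was highest for Neurod6 at 4.08 (others −1.55 to −0.09), Slc17a7 at 7.07 (others 2.63 to 3.296), Rtn4rl2 at 3.05 (others −0.60 to 0.19) and the cortical excitatory list at 5.31 (others 2.17 to 2.58). Susceptible mouse 3 was highest for Igf2 at 5.86 (others 5.21 to 5.30) and for the histone list at 1.94 (others 1.23 to 1.42), and susceptible mouse 4 was lowest for Rgs16 at −0.31 (others 2.18 to 2.84).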

How the results depend on the processing

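No paired analysis was possible because no label pairs single mice of different groups, and the mouse ID prefixes, which hold unequal numbers of both, were fitted as a covariate instead. At an adjusted p under 0.05, susceptible against control mice gave 0 genes in edgeR under each alternative except the mouse ID prefix as a covariate (2 genes, Gm20594 and Gm43333), beside 12 in DESeq2, and 0 in every run without 1 mouse. Genes higher and lower at an unadjusted p under 0.05 numbered 2715 and 167 without TMM factors, 3867 and 111 in limma voom without TMM and with ComBat, 888 and 1141 without the filter on low counts, and 205 and 490 with only the groups compared. Leaving out 1 mouse gave 227 to 874 higher and 439 to 1340 lower genes, with 874 and 1340 without control mouse 2, 633 higher without control mouse 1 and 439 lower without susceptible mouse 4. Alternatives chosen after seeing the data gave 798 and 1269 without control mice 2 and 5, and 1011 and 348 with the mitochondrial genes left out and no TMM factors. Susceptible against resilient mice gave 0 to 1 genes without 1 mouse, the 1 gene without resilient mouse 3, and a fit with mouse ID prefix was not possible. The BNST strain by susceptibility interaction gave 1416 genes without TMM factors, 2475 in limma voom with ComBat, 223 in DESeq2, 80 with mouse ID prefix and 0 to 109 without 1 mouse (109 without B6 control mouse 4, 64 without D2 control mouse 5 and 26 without B6 susceptible mouse 3). The cause of these shifts was not tested.

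Of 76 genes named, 70 kept their direction under each alternative that gave a value (22 or 23 for each gene of the main comparison). Many of them were chosen by p or by the side of the control mean in these same mice. That choice partly fixes this count, which is therefore no measure of how stable genes are in general. The fit with ComBat also had no TMM factors. Crh turned to 0.26 without TMM factors, 1.02 in limma voom with TMM, 1.34 with ComBat and 0.16 with library set as a covariate. It ranged from −0.51 to 0.38 without 1 mouse. Crhr1 turned to 0.13 without TMM factors, 0.19 with ComBat and 0.25 with mouse ID prefix, and ranged from −0.33 to 0.044. Pdgfra turned to 0.19 without TMM factors, 0.20 with ComBat and 0.017 without control mice 2 and 5, and Drd2 to −0.28 without those mice. Without 1 mouse, Slc17a7 ranged from −2.02 to 1.84, Neurod6 from −0.0031 to 3.154 and the cortical list, relative to all genes, from −0.39 to 1.496. Relative to all genes, the thalamic median ranged from −1.68 to −0.53 without 1 mouse, and the medians of the peptide precursors (−0.35 to 0.37), GABA receptor subunits (−0.23 to 0.25), immediate early genes (−0.35 to 0.22) and microglia (−0.28 to 0.05) changed sign, as did those of the hypothalamic, choroid plexus, OPC, glutamate receptor and predicted gene lists.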

Other observations

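Synaptic receptor genes showed few differences between D2 susceptible and control mice. Of 22 glutamate receptor subunits none was past an unadjusted p of 0.05 (median −0.06). Of 16 GABA receptor subunits, Gabre was higher at this threshold. Gabre, the epsilon subunit, had 1.24 to 9.99 CPM in controls and 49.1 and 21.8 CPM in susceptible mice 2 and 3, beside 2.33 to 2.80 CPM in the other susceptible mice. The same susceptible mouse 2 had the highest Esr1 and Oxt levels, 17.1 and 25.1 CPM.

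Immediate early genes, which report recent neuronal activity, showed no member of 15 past an unadjusted p of 0.05 (median −0.08). Fos had 1.20 to 4.75 CPM in controls and 0.827 to 5.28 CPM in susceptible mice. Of 40 replication-dependent histone genes 1 was lower, Hist1h2bc, with 13.3 to 30.3 CPM in controls and 12.4 to 16.9 CPM in susceptible mice. Choroid plexus (7 genes), ependymal (6 genes) and blood (5 genes) lists had no member past an unadjusted p of 0.05, with medians of 0.13, 1.03 and 0.27. Of 3518 predicted genes and pseudogenes, 63 were higher and 197 (5.60%) lower, beside 1.79% and 4.24% of all genes.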
